A study of Homo sapiens with 9 samples.

Results

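TFIID is the general transcription factor that recognises the promoters of protein-coding genes and lets RNA polymerase II assemble on them. It consists of the TATA-binding protein TBP and a set of TBP-associated factors (TAFs). TAF5 belongs to its core scaffold, on which several other TAFs, many of them joined in pairs through histone folds, come together. The transcripts of TAF5 and of 9 other subunits (TBP, TAF1, TAF2, TAF4, TAF6, TAF7, TAF9, TAF12 and TAF13) were followed here in MDA-MB-231, a line of human triple-negative breast cancer cells. Every probe set that the array's annotation assigns to exactly 1 gene symbol was taken if that symbol was one of the 10. This gave 15 probe sets for 9 genes, out of 54613 tested probe sets and 19775 genes with a probe set of their own in the series. The only probe set for TAF9 is shared with AK6, so TAF9 has no value here. TAF5 was chosen on its own values, which differed between the mimic and AllStar arrays, so its differences from AllStar are given below as descriptions, with no p. Where counts of calls include TAF5, those calls belong to its choice and support nothing. The others were included as partners of TAF5 in the complex, with earlier results of these data known.

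The cells were given 1 of 3 small RNAs at 10 nM by lipid transfection: AllStar, a negative control, or one of a pair of mimics called Qmimic and Dmimic. RNA was taken after 48 h from 3 biological replicates of each group, and each of the 9 samples was measured on an Affymetrix HG-U133 Plus 2.0 array. In its title the series refers to miR-34a, a microRNA, while the labels give neither the mimics' sequences nor the meaning of the letters Q and D. All samples come from 1 cell line. The deposited values are log2 RMA signals, so a difference of 1 is a doubling. They compare 1 probe set across arrays and do not rank different genes by abundance.

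The cell line's identity and the arrays were checked first. The markers VIM, CD44, KRT18 and KRT8 lay at mean log2 signals of 10.67 to 13.66. Of the 4 markers listed beforehand as absent from these cells, PGR and CDH1 lay at 4.05 and 3.67. The others on that list, ERBB2 at 8.59 and ESR1 at 6.90, were not at the bottom of the signal range, so this check was only partly met. Among markers of other cell types PTPRC (3.91) and ALB (3.89) were low, and CD3E (5.50), PECAM1 (6.33) and COL1A1 (7.27) lay higher. None of these markers was called by limma with all 9 arrays; without AllStar replicate 3 COL1A1 fell with Qmimic against AllStar by 0.93 (adjusted p = 0.0483) on 1 of 5 probe sets. The third AllStar array was unlike the rest, correlating with them at 0.974 to 0.981 where they correlated with one another at 0.993 to 0.998. Set against the average of its fellow AllStar arrays, its probe sets at a log2 signal of 8 to 10 lay at a median of -0.45, those at 6 to 8 at -0.26 and those at 4 to 6 at 0.21. Results are therefore given for all 9 arrays and again without this array. No reason for its difference is stated in the labels.

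The microRNA in the series title acts through bases 2 to 8 of its mature strand, the seed, which is in capitals in the RefSeq sequence shown here because it is the sequence by which a mimic of this microRNA would recognise transcripts.
hsa-miR-34a-5p: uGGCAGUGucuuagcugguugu
It maps to chr1:9151735-9151756 of GRCh38.p14 on the minus strand. No transcript sequence was searched for matches to it.

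TAF5 lay lower in every mimic array than in every AllStar array on its brighter probe set, 210053_at. Its log2 signal was 8.74, 8.80 and 8.42 in AllStar replicates 1, 2 and 3. It was 7.49, 7.85 and 8.002 in the Qmimic replicates and 7.72, 7.83 and 7.09 in the Dmimic replicates. The mimic groups overlapped each other, and Dmimic replicate 3 was the lowest array. The group means were 8.65 ± 0.21 in the control group, 7.78 ± 0.26 for Qmimic and 7.55 ± 0.40 for Dmimic (SD, n = 3 each). The differences from AllStar were -0.87 (SE 0.20), a size of 1.83-fold, for Qmimic and -1.10 (SE 0.20), or 2.15-fold, for Dmimic. When AllStar replicate 3 was left out they were -0.99 (SE 0.20) and -1.22 (SE 0.20). Because RNA came from whole wells, fewer cells holding the transcript and less transcript per cell cannot be told apart.

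The other TAF5 probe set, 1553528_a_at, separated the groups only when AllStar replicate 3 was left out. AllStar replicates 1 and 2 gave 8.61 and 8.82 there, while replicate 3 gave 7.67, inside the range of the mimic arrays. The Qmimic arrays gave 7.35, 7.86 and 7.96 and the Dmimic arrays 7.71, 7.71 and 6.72. The lowest array was again Dmimic replicate 3, and the lowest Qmimic array was again replicate 1. With all 9 arrays the differences from AllStar were -0.64 (SE 0.34) for Qmimic and -0.99 (SE 0.34) for Dmimic. Without AllStar replicate 3 they were -0.99 (SE 0.27) and -1.34 (SE 0.27), close to those of the first probe set. AllStar replicate 3 lay 1.05 below the mean of AllStar replicates 1 and 2 on this probe set and 0.35 below it on the first.

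**Figure D1:**
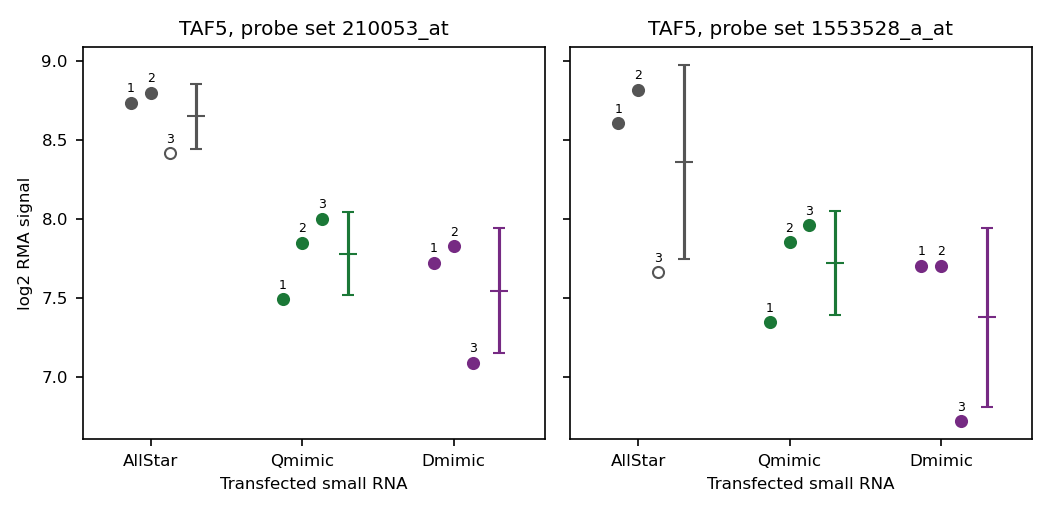
log2 RMA signal (vertical axis) of both TAF5 probe sets in each array, by transfected RNA (horizontal axis); numbers are replicates, the open circle is AllStar replicate 3, and bars are mean ± SD of 3 arrays. On 210053_at all AllStar arrays lie above 8.002, the highest mimic array, while on 1553528_a_at AllStar replicate 3 (7.67) falls among the mimic arrays.

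Whether the mimics differ from each other in TAF5 was not part of its choice and was tested. On 210053_at the mean was higher with Qmimic by 0.23, with a 95% half-width of 0.45 (limma adjusted p = 1, exact two-sided permutation p = 0.5). On 1553528_a_at the difference was 0.34, with a 95% half-width of 0.75 (limma adjusted p = 1, exact two-sided permutation p = 0.5). The smallest permutation p that 3 arrays against 3 allow is 0.1. The group means were thus ordered AllStar, Qmimic, Dmimic, and the neighbours Qmimic and Dmimic did not differ beyond their spread. Nearly all of the first difference came from Dmimic replicate 3: without that array it was 0.01. On 1553528_a_at Dmimic replicates 1 and 2 both gave 7.71, near the Qmimic mean of 7.72, and replicate 3 gave 6.72. The order of the mimics thus rested on 1 array.

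Over all 54613 probe sets, limma called none for Qmimic against AllStar with all 9 arrays (0%) at an adjusted p under 0.05 and a change of at least 1.5-fold, and 0.00549% for Dmimic. Of the 15 TFIID probe sets 0 were called with either mimic. Of the 13 that do not belong to TAF5, 5 had an unadjusted p under 0.05 with Qmimic and 5 with Dmimic, beside 16.3% and 12.8% of all probe sets. With the 8 arrays that leave out AllStar replicate 3 these counts were 3 and 4 of 13, beside 18.2% and 17.1%. In that fit limma called 0.54% of all probe sets for Qmimic and 0.864% for Dmimic. Those of TAF5 among them were 1 of 2 probe sets with Qmimic and 2 of 2 with Dmimic, all lower, which is part of how TAF5 was chosen. When AllStar replicate 1 was also left out, 0 TFIID probe sets were called, as were 2 (Qmimic) and 1 (Dmimic) of all 54613, while TAF5 on 210053_at still differed by -1.02 and -1.25. Without AllStar replicate 2 instead, again 0 were called, and 9 and 15 of all, with TAF5 at -0.96 and -1.19. These fits hold a single AllStar array, which is assumed to vary like the other groups. With Qmimic, leaving out AllStar replicate 3 and 1 of Qmimic replicates 1, 2 and 3 or Dmimic replicate 1 gave 0 TFIID probe sets among 89, 90, 334 and 242 called in all, and leaving out Dmimic replicate 3 gave 2 among 486. With Dmimic the count was 1 among 240 without Qmimic replicate 2 and 1 among 338 without Qmimic replicate 3. It was 3 among 902 without Dmimic replicate 2, of which 1 was a TAF13 probe set.

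The 13 probe sets of the 8 other genes lay on both sides of AllStar. With all 9 arrays, 8 lay above and 5 below AllStar with each mimic, at a median log2 difference of 0.19 with Qmimic and 0.20 with Dmimic, where the median of all probe sets was -0.03 in both comparisons. With 8 arrays the medians were 0.09 (9 of 13 above) and 0.02 (8 of 13 above), beside medians of all probe sets of -0.01 and -0.00. The mimic arrays all lay above all AllStar arrays on 6 of the 13 with Qmimic and on 4 with Dmimic, and all below on 0. Across all probe sets the shares were 14.1% above and 10.8% below with Qmimic, and 11.9% and 7.04% with Dmimic. Leaving out AllStar replicate 3 again gave counts of 6 and 4 above and 0 below, while the shares of all probe sets were 17.9% above and 20% below with Qmimic and 17% and 16.5% with Dmimic. No probe set of these 8 genes was called with or without AllStar replicate 3. Both comparisons use the same AllStar arrays. The medians and shares of all probe sets were not matched to the 13 by signal, and AllStar replicate 3 deviated by signal level, as given above. How far this accounts for the distance between the 13 and all probe sets was not tested.

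**Figure D2:**
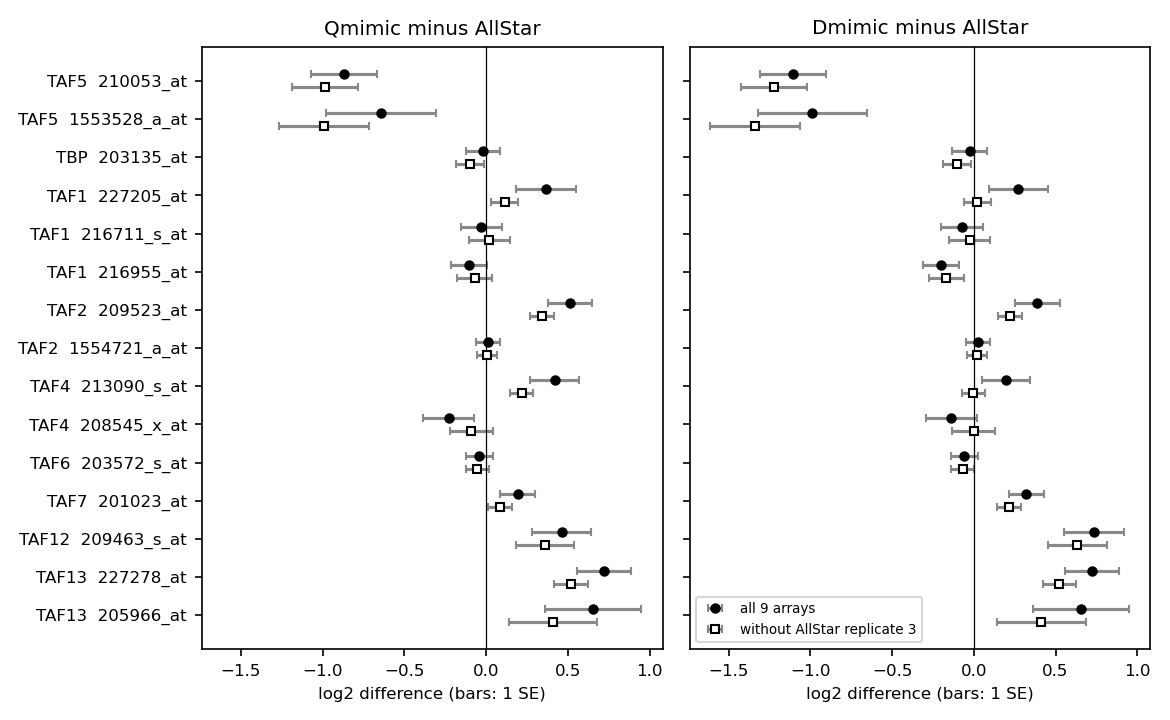
Difference from AllStar in log2 units (horizontal axis) for each of the 15 TFIID probe sets (vertical axis), Qmimic on the left and Dmimic on the right; circles are all 9 arrays, squares leave out AllStar replicate 3, and bars are 1 SE. Both TAF5 probe sets lie between -0.64 and -1.34, while those of TAF12 and TAF13 lie to the right of 0.

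TBP, the subunit that binds the TATA box, stayed within its spread in the deposited values. Its means for AllStar, Qmimic and Dmimic were 8.60 ± 0.15, 8.58 ± 0.05 and 8.57 ± 0.14 (SD, n = 3 each). The differences were -0.02, with a 95% half-width of 0.23, and -0.03, with the same half-width (limma adjusted p = 0.921 and adjusted p = 0.912). TAF6, which pairs with TAF9 through a histone fold and, like TAF5, belongs to the core, was similarly flat. Its mean was 9.39 ± 0.03, 9.35 ± 0.06 and 9.33 ± 0.07 (SD, n = 3 each), with a 95% half-width of 0.18 around differences of -0.04 and -0.06 (limma adjusted p = 0.778 and adjusted p = 0.736). For both genes the intervals of the differences do not reach the mean differences of either TAF5 probe set. Those sizes belong to the choice of TAF5, so this is a description and no test of a contrast. The 95% interval of TAF5 on 1553528_a_at with Qmimic, -1.39 to 0.11 with all 9 arrays, overlaps those of both genes.

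TAF13, which pairs with TAF11 through a histone fold, had the highest difference of the 13 with Qmimic, and with Dmimic only TAF12 lay higher. On its bright probe set 227278_at the log2 signal was 10.24, 10.06 and 9.55 with AllStar. It was 10.58, 10.85 and 10.58 with Qmimic and 10.69, 10.57 and 10.77 with Dmimic, so all 6 mimic arrays lay above all AllStar arrays. The differences were 0.72 (SE 0.16, limma adjusted p = 0.173) with Qmimic and 0.72 (SE 0.16, limma adjusted p = 0.136) with Dmimic. AllStar replicate 3 lay 0.60 below the mean of the other AllStar arrays here, and its part in these differences can be read from the values without it, 0.52 and 0.52 (SE 0.10 each). In that fit the limma adjusted p was 0.0376 and 0.034, and the sizes of 1.44-fold and 1.44-fold lay under the 1.5-fold threshold. An adjusted p under 0.05 alone was met by 1.75% of all probe sets with Qmimic and 2.31% with Dmimic. Leaving out 1 more array moved that adjusted p to between 0.0222 and 0.296 with Qmimic and between 0.0253 and 0.259 with Dmimic, with positive differences throughout. The dim TAF13 probe set 205966_at gave 0.65 and 0.66 (SE 0.29 each) with all 9 arrays (limma adjusted p = 0.306 and adjusted p = 0.387) and 0.41 and 0.41 without AllStar replicate 3. Dmimic replicate 2 (4.62) fell among its AllStar arrays (4.20 to 5.04).

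TAF12, the histone-fold partner of TAF4 and a subunit that TFIID shares with the SAGA coactivator, lay above AllStar in all Dmimic arrays. The log2 signal of its only probe set was 6.29, 5.95 and 5.82 with AllStar. It was 6.67, 6.55 and 6.23 with Qmimic, 1 of which fell within the AllStar range, and 6.49, 6.68 and 7.10 with Dmimic. The difference was 0.46 (SE 0.18, limma adjusted p = 0.274) with Qmimic and 0.73 (SE 0.18, limma adjusted p = 0.165) with Dmimic, sizes of 1.38-fold and 1.66-fold. With the 8 arrays that leave out AllStar replicate 3 they were 0.36 (limma adjusted p = 0.317) and 0.63 (limma adjusted p = 0.0944). Dmimic replicate 3, the lowest array for TAF5, was the highest for TAF12.

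TAF4 itself, the scaffold subunit that pairs with TAF12, was measured on 2 probe sets. On the brighter one, 213090_s_at, the AllStar mean was 8.22 ± 0.35, that of Qmimic 8.64 ± 0.07 and that of Dmimic 8.42 ± 0.05 (SD, n = 3 each). The difference with Qmimic was 0.42 (limma adjusted p = 0.252) with all arrays and 0.22 (limma adjusted p = 0.136) without AllStar replicate 3. That with Dmimic was 0.20 (limma adjusted p = 0.551) and changed sign to -0.00 without this array, which lay 0.60 below the other AllStar arrays. The dim probe set 208545_x_at lay at -0.23 and -0.14 (limma adjusted p = 0.423 and adjusted p = 0.673) with all arrays, and at -0.09 and 0.00040 without AllStar replicate 3.

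TAF2, which contacts the initiator element at the start site together with TAF1, lay above AllStar in every mimic array on 209523_at. The means were 8.96 ± 0.30, 9.47 ± 0.08 and 9.34 ± 0.04 (SD, n = 3 each) for AllStar, Qmimic and Dmimic in that order. The difference with Qmimic was 0.51 (limma adjusted p = 0.192) and that with Dmimic 0.39 (limma adjusted p = 0.29). Leaving out AllStar replicate 3 made these 0.34 (limma adjusted p = 0.0497, 1.27-fold) and 0.22 (limma adjusted p = 0.153). Both remained under the fold threshold, and the first p lay at 0.0349 to 0.335 when 1 more array was left out. The other TAF2 probe set, 1554721_a_at, carries little information, since its value was exactly 7.97 on 5 of 9 arrays and its whole range was 0.06. Only 60 of the 54613 probe sets repeat a value on at least 5 arrays in this way.

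TAF1, the largest subunit and the one whose bromodomains bind acetylated histones, was measured on 3 probe sets. On the brightest, 227205_at, its AllStar mean was 7.65 ± 0.44, its Qmimic mean 8.02 ± 0.04 and its Dmimic mean 7.93 ± 0.13 (SD, n = 3 each). AllStar replicate 3 (7.15) lay 0.75 below the other AllStar arrays, and without it the differences of 0.37 and 0.27 (limma adjusted p = 0.33 and adjusted p = 0.515) became 0.11 and 0.02 (limma adjusted p = 0.509 and adjusted p = 0.94). The other TAF1 probe sets differed from AllStar by -0.20 to -0.03 with all arrays. TAF7, which binds TAF1 and restrains its acetyltransferase activity, had means of 10.90 ± 0.19, 11.09 ± 0.04 and 11.22 ± 0.09 (SD, n = 3 each). All its mimic arrays lay above its AllStar arrays, by 0.19 (limma adjusted p = 0.359) with Qmimic and 0.32 (limma adjusted p = 0.267) with Dmimic. With 8 arrays these were 0.09 and 0.22 (limma adjusted p = 0.577 and adjusted p = 0.155).

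**Figure D3:**
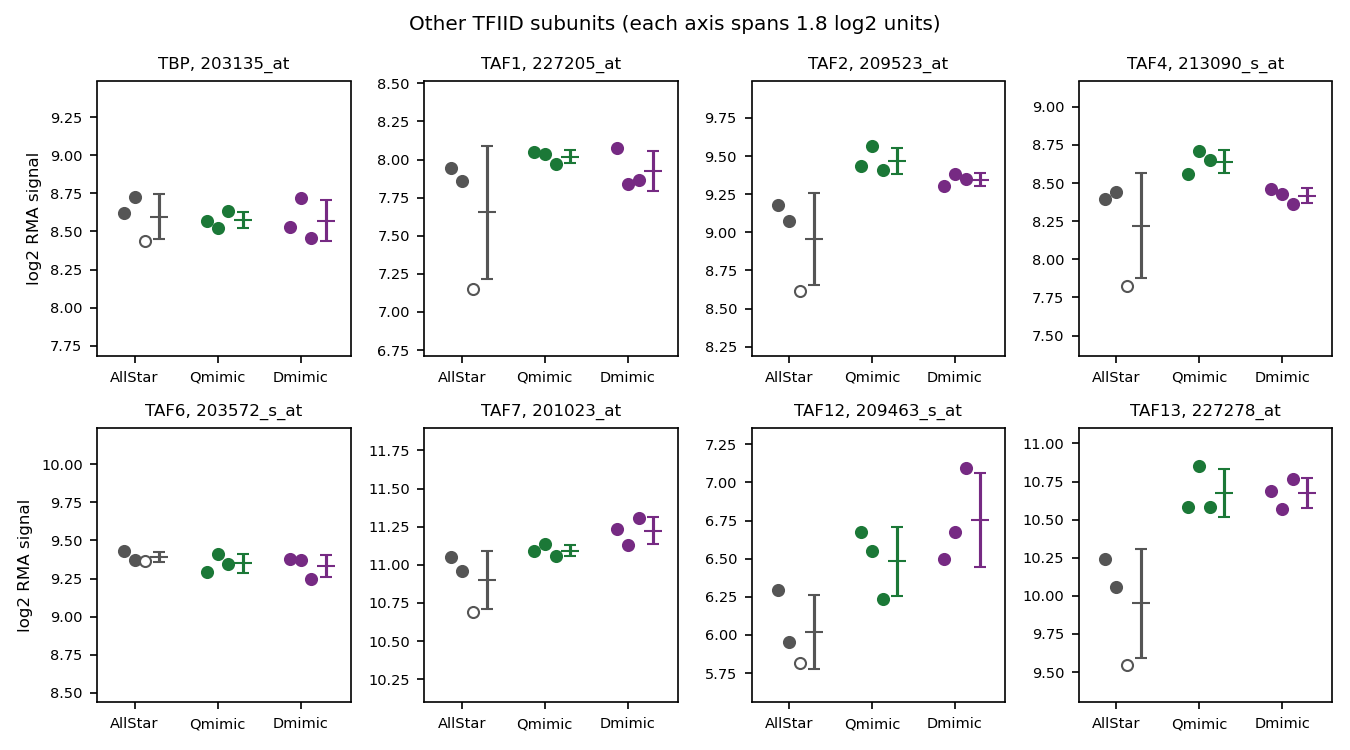
log2 RMA signal (vertical axes, each spanning 1.8 log2 units) of the brightest probe set of the 8 other measured subunits by transfected RNA (horizontal axes); points are arrays, the open circle is AllStar replicate 3, and bars are mean ± SD of 3 arrays. TBP and TAF6 are level across groups, the mimic arrays of TAF13 lie above its AllStar arrays, and AllStar replicate 3 is the lowest array for TBP, TAF1, TAF2, TAF4, TAF7, TAF12 and TAF13.

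Between the mimics none of the 15 TFIID probe sets was called by limma with all 9 arrays, where 0% of all probe sets were called, and 0 of the 15 had an unadjusted p under 0.05, beside 2.41% of all. Without AllStar replicate 3 again 0 were called, against 0.0806% of all probe sets, and 1 of the 15 had an unadjusted p under 0.05, beside 11.1% of all. That one was TAF4 on 213090_s_at, higher with Qmimic by 0.22 (SE 0.06, limma adjusted p = 0.244), with its Qmimic arrays (8.56 to 8.71) all above its Dmimic arrays (8.36 to 8.46). Of the 13 probe sets other than those of TAF5, 3 lay higher in all Qmimic than in all Dmimic arrays, where 7.11% of all probe sets did. The differences on the 13 probe sets of the other genes ran from -0.27 (TAF12) to 0.22 (TAF4), and TAF13 gave -0.00 with a 95% half-width of 0.37 on 227278_at.

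The genes whose profile over the arrays was most like that of TAF5 were sought among 19260 other genes. The 10 TFIID genes named at the start were left out. Each gene was taken by its brightest probe set and centred on its own mean, and likeness was the root mean square difference of its log2 values from those of TAF5 on 210053_at. Over the 9 arrays the nearest were the nucleoside transporter SLC29A1 (0.07) and GINS3 (0.08), a subunit of the GINS complex of the replication helicase. They were followed by LEF1 (0.10), which partners beta-catenin in WNT signalling, MCM2 (0.11), a subunit of the replicative helicase, and TPD52 (0.11). Over the 8 arrays without AllStar replicate 3 the nearest 5 were GINS3 (0.07), SLC29A1 (0.07), TPD52 (0.08), MCM2 (0.08) and MCM3 (0.09), another helicase subunit. The median over all genes was 0.55 in both cases. The second TAF5 probe set differed from the first by 0.23 over 9 arrays and by 0.12 over 8, more than any of these genes. As in TAF5, all AllStar arrays of these 6 genes lay above all their mimic arrays, and Dmimic replicate 3 was the lowest array. For GINS3 the log2 signal was 7.53, 7.53 and 7.07 with AllStar, 6.27, 6.67 and 6.67 with Qmimic and 6.60, 6.71 and 5.86 with Dmimic. For MCM2 it was 10.02, 10.05 and 9.58, then 8.98, 9.22 and 9.36, then 9.12, 9.31 and 8.53. The likeness was used to select these genes, so it is a description. Of the 8 other TFIID genes followed here none was near TAF5. The closest were TAF6 and TBP, at 0.50 each over 9 arrays, and the farthest TAF13 (0.86) and TAF12 (0.88). This does not cover the further TFIID subunits and paralogues listed below. Among those, TAF4B on 216226_at also had all AllStar arrays above all mimic arrays and Dmimic replicate 3 lowest.

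**Figure D4:**
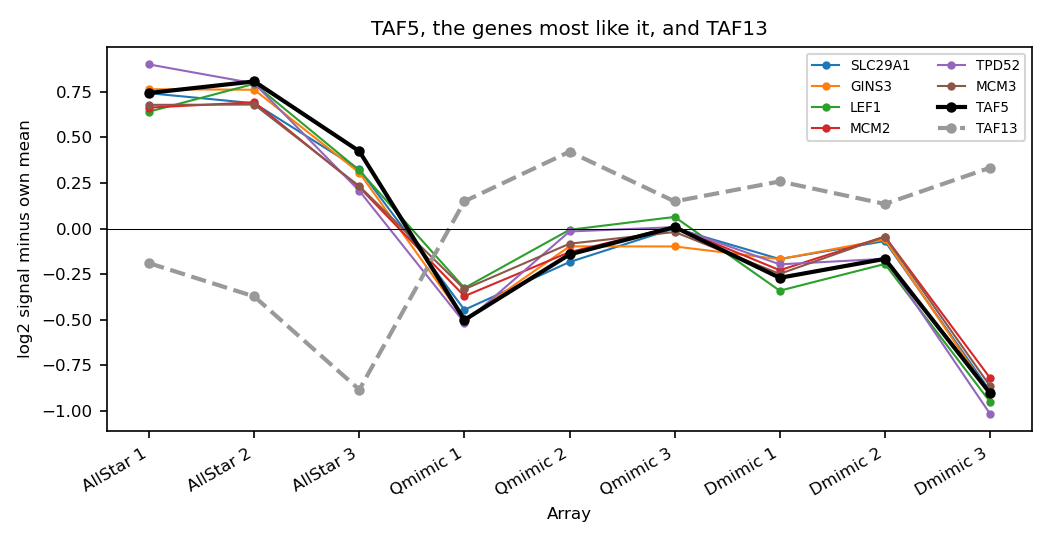
log2 signal minus each gene's own mean (vertical axis) in each array (horizontal axis) for TAF5 on 210053_at, the 6 genes nearest to it over 9 or 8 arrays, and TAF13 on 227278_at for contrast. The lines join arrays only to guide the eye; the 6 genes follow TAF5 with Dmimic replicate 3 lowest, while TAF13 is lowest in the AllStar arrays.

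Further genes of the transcription machinery were counted in 5 lists, of which 64 of 66 genes were measured on 145 probe sets. With all 9 arrays limma called 0 of them with either mimic, as against 0% and 0.00549% of all probe sets. Of the 24 probe sets of other TFIID subunits and paralogues (TAF3, TAF8, TAF10, TAF11, TAF4B, TAF9B, TAF1L, TAF7L and TBPL1), 14 lay above AllStar with Qmimic and 15 with Dmimic, at medians of 0.06 and 0.06. In the fit of 8 arrays the counts were 11 and 12 and the medians -0.03 and -0.01. In that fit 1 of the 24, and 1 of the 145 of all lists, was called for Dmimic, where 0.864% of all probe sets were. The count among the 145 is near the background. Among the 24 the share is larger, but it rests on 1 probe set. It belongs to TAF4B, a paralogue of TAF4, whose signal on 216226_at was 6.01 to 6.17 with AllStar, 5.58 to 5.88 with Qmimic and 5.30 to 5.69 with Dmimic. TAF4B fell there by 0.61 with Dmimic (limma adjusted p = 0.0377, 1.52-fold) and differed by -0.41 with Qmimic (limma adjusted p = 0.122). With all 9 arrays its differences were -0.58 (limma adjusted p = 0.126) and -0.38 (limma adjusted p = 0.233). Its other probe set, 235020_at, was not called but lay on the same side, at -0.52 with Dmimic and -0.34 with Qmimic, and at -0.68 and -0.50 without AllStar replicate 3.

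The remaining 4 lists gave no call by limma in either fit. In human cells SAGA contains TAF5L and TAF6L in place of TAF5 and TAF6. Its 45 probe sets, with those of related acetyltransferase complexes, had medians of 0.04 with Qmimic and 0.04 with Dmimic, and of -0.06 and -0.01 without AllStar replicate 3. In each list the 2 genes with the smallest unadjusted p in any comparison of all 9 arrays are named. Here they were the adaptor subunits TADA2B (0.62 with Qmimic, limma adjusted p = 0.183) and TADA3 (0.44 with Dmimic, limma adjusted p = 0.202). Without AllStar replicate 3 TADA2B lay at 0.43 with Qmimic (limma adjusted p = 0.036), a size of 1.35-fold and so under the fold threshold, and TADA3 at 0.29 with Dmimic. With all 9 arrays the other probe set of TADA2B lay at 0.33 with Qmimic and that of TADA3 at 0.13 with Dmimic. The 28 probe sets of the other general transcription factors of RNA polymerase II had medians of 0.23 with Qmimic (26 above 0) and 0.16 with Dmimic (24 above 0). Of all probe sets, 43.5% and 44.4% lay above 0, at a median of -0.03 in both comparisons. The medians of the 28 dropped to 0.12 (19 above 0) and 0.05 (20 above 0) without AllStar replicate 3, beside 45.7% and 49.9% of all above 0. Named by the same rule were GTF2F2, the small subunit of TFIIF (0.49 with Dmimic, limma adjusted p = 0.168), and GTF2B, the factor TFIIB (0.49, limma adjusted p = 0.195), at 0.36 and 0.32 without AllStar replicate 3. The 25 probe sets of other TBP partners had medians of 0.13 and 0.09, and of -0.02 and -0.02 without AllStar replicate 3. DR1, a repressor that binds TBP (0.48 with Qmimic, limma adjusted p = 0.261), and BDP1 of TFIIIB (0.48 with Qmimic, limma adjusted p = 0.311) were named among them. Without AllStar replicate 3 they lay at 0.32 and 0.16, that array being the lowest for both. These values are of 1 of 8 DR1 and 1 of 3 BDP1 probe sets. With Qmimic and all 9 arrays the other DR1 probe sets ran from -0.02 to 0.35, and from -0.16 to 0.17 without AllStar replicate 3. The other BDP1 probe sets lay at 0.19 and -0.09 with all 9 arrays. RNA polymerase II subunits, with 23 probe sets, had medians of 0.07 and 0.10, and of 0.00 and 0.04 without that array. POLR2I and POLR2C lay at 0.18 (limma adjusted p = 0.421) and 0.24 (limma adjusted p = 0.429) with Dmimic, and at 0.11 and 0.09 without AllStar replicate 3. The other POLR2C probe sets lay at 0.11 and 0.08 with Dmimic and all 9 arrays.

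The signs of the list medians were not stable to scaling. With all 9 arrays and Qmimic, cyclic loess turned the medians of other TFIID subunits (-0.01), SAGA (-0.02) and RNA polymerase II (-0.08) negative, while those of the general factors (0.12) and of the 13 TFIID probe sets without TAF5 (0.05) stayed positive. The RNA polymerase II median was also negative with Dmimic (-0.02) after cyclic loess. No scaling moved the median of all probe sets by more than 0.07.

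**Figure D5:**
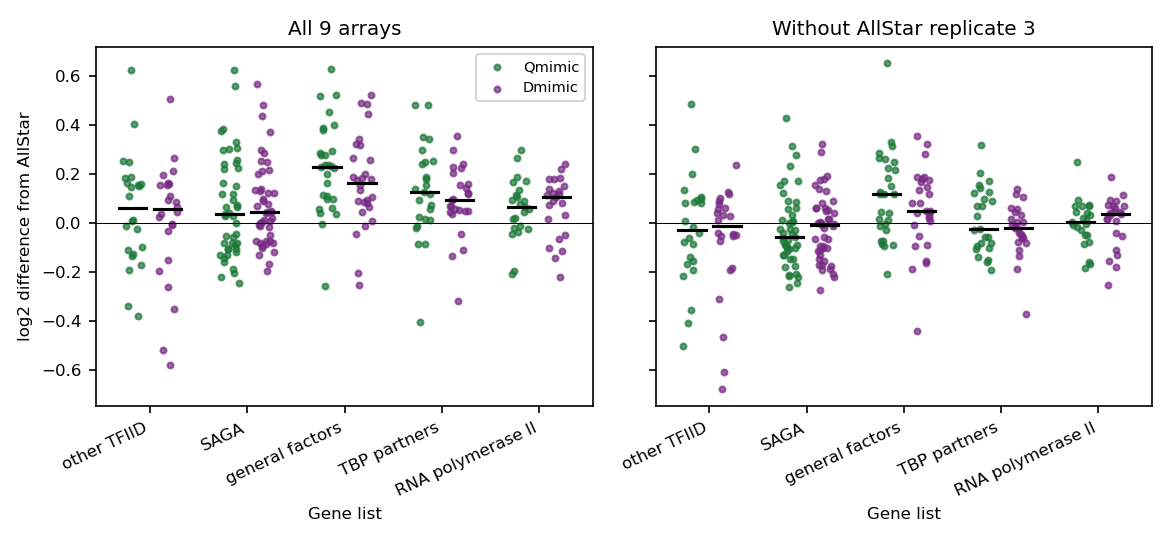
log2 difference from AllStar (vertical axis) of each probe set of 5 lists (horizontal axis), with all 9 arrays on the left and without AllStar replicate 3 on the right; green points are Qmimic, purple points Dmimic, and black bars are medians. The medians lie at 0.04 to 0.23 on the left and at -0.06 to 0.12 on the right.

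The RefSeq sequences (GRCh38.p14) before the start sites of TAF5 and TAF13 are shown because the signals of these partners in 1 complex lay on opposite sides of AllStar. RefSeq windows were found for 9 of the 10 genes, as 13 windows, and the 250 bases before the start were searched on both strands for 3 motifs: TATAAA and also CCAAT and lastly GGGCGG. The matches shown do not overlap and are in capitals.
TAF5 (chr10:103367726-103367975, plus strand): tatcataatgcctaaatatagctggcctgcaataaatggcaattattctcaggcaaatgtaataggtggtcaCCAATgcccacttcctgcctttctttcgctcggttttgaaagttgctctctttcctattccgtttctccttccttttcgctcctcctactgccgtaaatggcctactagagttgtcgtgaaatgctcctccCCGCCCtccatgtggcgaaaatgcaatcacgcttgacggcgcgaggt
TAF13 (chr1:109076004-109076253, minus strand): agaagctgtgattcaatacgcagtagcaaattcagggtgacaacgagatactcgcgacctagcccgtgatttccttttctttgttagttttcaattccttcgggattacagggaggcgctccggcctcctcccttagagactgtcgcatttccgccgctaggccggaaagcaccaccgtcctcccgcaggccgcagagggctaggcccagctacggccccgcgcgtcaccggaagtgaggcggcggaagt
The TAF5 window holds CCAAT 178 bases and the reverse complement of GGGCGG 47 bases before the start. The TAF13 window holds none of the 3 motifs. TATAAA, the core of the sequence that TBP is known to bind, was in 0 of the 13 windows of these genes and in 10.7% of 35116 RefSeq windows of that length. CCAAT was in 4 of the 13 and in 32% of all, and GGGCGG in 7 of the 13 and in 42.6% of all. These are letter matches and say nothing of the factors that bind there.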

How the data were processed

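Total RNA of 9 MDA-MB-231 samples (3 per group) was measured on HG-U133 Plus 2.0 arrays. The authors deposited log2 signals per probe set, made with RMA and analysed with limma per the submitters' processing notes, without versions; per the series' design text, RMA was run in AFFYGUI. The 62 control probe sets were left out and the other 54613 tested without a filter on low values. In limma 3.58.1 (R 4.3.3) a linear model with 3 groups was fitted, with eBayes and Benjamini-Hochberg adjustment over all probe sets. A call needed an adjusted p under 0.05 and a change of at least 1.5-fold. All p-values named adjusted come from limma, and the script was tested on simulated data. Depth does not apply to arrays; their number limits the precision.

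Pairing of arrays by replicate number was neither seen steadily nor excluded. Of 9 pairs of arrays with equal numbers, the deviations from group means correlated above 0.1 in 3 (lowest -0.28, highest 0.22). Members and lists were chosen with earlier results of these data known. All member probe sets were named, list members if called, otherwise the 2 with the smallest unadjusted p over the comparisons of all 9 arrays, and the 5 genes most like TAF5. A gene's brightest probe set represented it for likeness. Symbols starting with LOC were passed over. GTF2H2 and TBPL2 had no probe set of 1 symbol. The rule also named COL1A1, called without AllStar replicate 3 as lower with Qmimic than with Dmimic on 2 of 5 probe sets (differences of -1.34 and -1.15).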

Additional observations from a re-analysis of the deposited data

How the results depend on the processing

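With all 9 arrays 0 TFIID probe sets were called in each comparison. For Dmimic against AllStar the count was 1 (TAF5) after repeated quantile normalisation, among 103 called in all, and 1 (TAF5) after cyclic loess, among 234. Array weights gave 2 (TAF5) among 594 for Qmimic and 4 (TAF5, TAF12 and TAF13) among 696 for Dmimic. Leaving out 1 array gave 0 to 1 for Qmimic and 0 to 2 for Dmimic; leaving out AllStar replicate 3 with 1 more, added once the values had been seen, gave 0 to 2 and 0 to 3. Adjusted p alone without AllStar replicate 3, added likewise, gave 3 among 953 and 3 among 1261. Between the mimics every setting run gave 0, and so for every comparison did the upper 60% of probe sets by mean, an eBayes trend, a fit of only the groups compared, adjusted p alone and a log2 change of at least 1.5.

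The TAF5 difference on 210053_at stayed negative in every setting run, from -1.10 to -0.72 with Qmimic and from -1.36 to -0.88 with Dmimic over the fits that left out arrays. TAF5 was chosen on the values of these same arrays, so its steady sign supports nothing. Small differences changed sign. Centring each array on its median gave TBP 0.048 with Qmimic and 0.028 with Dmimic, and TAF6 0.027 with Qmimic. The other scalings moved both genes the other way. Repeated quantile normalisation gave TBP -0.18 with Qmimic and -0.16 with Dmimic, and TAF6 -0.19 and -0.18. Cyclic loess gave TBP -0.19 with Qmimic and -0.18 with Dmimic, and TAF6 -0.21 and -0.22. Array weights gave TAF4 -0.0017 with Dmimic. Over the fits that left out arrays, TBP ran from -0.15 to 0.046 with Qmimic and from -0.18 to 0.040 with Dmimic, TAF1 from -0.053 to 0.42 with Dmimic, and TAF4 from -0.026 to 0.31 with Dmimic. Causes were not tested.

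The replicate block called 0 TFIID probe sets in each comparison and left the TAF5 difference between the mimics at 0.23. Pairing by replicate number was neither seen steadily nor excluded.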
